A study of Homo sapiens with 6 samples.

Results

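MicroRNA and snoRNA host genes are the long RNAs from which many small RNAs are cut, and 60 of them were followed here in KYSE150 cells given the phorbol ester TPA or the solvent DMSO. They were taken by name, as rows named MIR followed by any letters and ending in HG, or SNHG with a number, that held at least 10 counts in at least 3 of the 6 libraries. Of 60591 rows in the count table, 94 matched the names, 66 of the MIR kind and 28 of the SNHG kind. The minimum left 60 members, 35 MIR host genes and 25 SNHG genes. The members were thus chosen by name and by their measured counts, read without regard to group.

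KYSE150 is an established line from a human oesophageal squamous cell carcinoma, and TPA activates protein kinase C. Per the labels, cells were grown in 6-well plates, kept overnight in medium without serum and then given TPA at 10 ng/ml for 24 h. The 3 control libraries came from the same line and carry the label DMSO, with no dose or time of their own. RNA was total RNA from TRIzol, sequenced as 3 TPA and 3 DMSO libraries. The labels do not say that libraries of a group came from separate cultures, so every p-value measures the spread between these libraries, which may be technical.

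A microRNA host transcript carries one or more hairpins, which the nuclear enzyme Drosha cuts out and Dicer trims to the mature strand that an Argonaute protein carries to target messages. The bases called the seed decide most of the pairing with those targets, so microRNAs that share a seed share many targets. A snoRNA host gene is spliced, its introns release snoRNAs that guide the modification or cutting of ribosomal RNA, and the spliced remainder is often short-lived. Mature small RNAs were not measured here, so all values below describe the long host transcripts or the reads counted on hairpin and snoRNA genes.

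Among the 60 members 56 reached 10 counts in all 6 libraries, 1 (MIR137HG) in 5 and 3 in 3, and 0 passed through libraries of 1 group alone. The members just inside the minimum were MIR583HG, with 11, 8 and 10 counts in DMSO 1 to 3 and 15, 4 and 3 in TPA 1 to 3, MIR497HG and MIR34AHG. Just outside lay SNHG31, with 13, 6 and 8 counts in DMSO and 11, 1 and 0 in TPA, and MIR302CHG, with 13, 5 and 9 against 8, 7 and 4. Of the 34 rows left out, 13 were at 0 in every library. MIR155HG, the host of the inflammatory microRNA miR-155, stayed under the minimum with 4, 12 and 4 counts in DMSO and 10, 1 and 2 in TPA. MIR3142HG was at 0 in all 6 libraries, which allowed up to 0.0915 to 0.109 CPM (counts scaled to library size) per library, a limit for counting error only.

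The libraries held 27702329 to 33965547 counts, of which the members took 0.235% to 0.270%. The libraries numbered 1 stood apart from the others of their groups. The summed level of 10 squamous epithelial markers was 2874 CPM in DMSO 1 and 2297 CPM in TPA 1, against 4355 to 5457 CPM in the other 4 libraries. Not all of the 10 followed the sum, and EPCAM was highest in the libraries numbered 1. Markers of other cell types were low, with 6 leukocyte genes summing to 2.54 to 4.52 CPM, 4 endothelial genes to 0.979 to 2.93 CPM and 6 fibroblast genes to 3.01 to 12.2 CPM. KDR and DCN were at 0 throughout. Fold changes also followed base composition, with a Spearman coefficient of 0.53 between the log2 fold change and transcript GC content across 12004 genes, which are not independent of each other, and 0.28 across the members. The part of these differences in the results below was not tested, except where values without the libraries numbered 1 or with a GC correction are given.

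Selected mature strands, from RefSeq on GRCh38.p14, are shown for hosts that the results turn on and for those that share a seed, and capitals mark the seed (bases 2 to 8). Strands of miR-22 and miR-3936 are not shown. The let-7 seed GAGGUAG stood in 5 mature strands from 4 hosts, MIR100HG, MIRLET7A1HG, MIRLET7BHG and MIR4500HG. The 3p strands of miR-29b and miR-29c from MIR29B2CHG share one seed, and so do those of miR-221 and miR-222 from MIR222HG.
hsa-miR-137-3p: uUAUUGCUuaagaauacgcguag
hsa-miR-194-5p: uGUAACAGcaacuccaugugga
hsa-miR-192-5p: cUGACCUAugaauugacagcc
hsa-miR-29b-3p: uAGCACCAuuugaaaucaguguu
hsa-miR-29c-3p: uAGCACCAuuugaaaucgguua
hsa-miR-1915-3p: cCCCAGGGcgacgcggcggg
hsa-miR-600: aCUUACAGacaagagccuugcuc
hsa-miR-205-5p: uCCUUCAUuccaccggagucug
hsa-miR-31-5p: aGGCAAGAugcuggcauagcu
hsa-miR-221-3p: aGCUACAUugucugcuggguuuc
hsa-miR-222-3p: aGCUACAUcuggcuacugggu
hsa-let-7a-5p: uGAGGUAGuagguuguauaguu
hsa-let-7f-5p: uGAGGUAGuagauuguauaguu
hsa-let-7d-5p: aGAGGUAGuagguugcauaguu
hsa-let-7b-5p: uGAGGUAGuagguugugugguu
hsa-miR-4500: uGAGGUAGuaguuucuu

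TPA against DMSO was first tested with edgeR's quasi-likelihood test on all 21825 genes that passed its expression filter, which held all 60 members. At an adjusted p (Benjamini-Hochberg, over all genes) of 0.05, 0 members passed in either direction, where 1.26% of all genes passed, 0.861% as higher and 0.394% as lower. The lowest adjusted p of a member was 0.0545, for MIR137HG. At an unadjusted p of 0.05, 13 members were higher and 6 lower, 31.7% of the members beside 22.1% of all genes. DESeq2 called 8 members higher and 4 lower, where it called 12% of all genes, 7.8% as higher and 4.19% as lower. limma-voom called 2 higher and 0 lower, where it called 1.73% of all genes, 1.13% as higher and 0.596% as lower. In edgeR, RLE factors gave 1 member called higher (1.05% of all genes), no expression filter gave 3 (1.06%) and leaving out DMSO 1 gave 1 (0.449%), each with 0 called lower.

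The TPA and DMSO libraries carry the same numbers, and same-numbered libraries deviated together, so the fit was repeated with the number as a replicate block. This pairing was read from the same data. It sets the libraries numbered 1 apart but does not tell pairs 2 and 3 from each other. In that fit 5 members rose (MIR137HG, MIR22HG, MIR194-2HG, SNHG12 and SNHG8) and 6 fell (MIR924HG, MIR1915HG, MIR3936HG, MIR2052HG, MIR29B2CHG and MIR600HG). That is 18.3% of the members, where the block called 11.1% of all genes, 4.58% as higher and 6.52% as lower. In the first edgeR fit, without the block, none of the 11 passed. With the block and a correction for GC content together, 9 members were called higher and 7 lower, where 20% of all genes were called, 9.18% as higher and 10.8% as lower. The higher ones were MIR137HG, MIR22HG, MIR222HG, MIR181A2HG, SNHG1, SNHG3, SNHG8, SNHG12 and SNHG16, and the lower ones MIR924HG, MIR1915HG, MIR3936HG, MIR29B2CHG, MIR600HG, MIR205HG and SNHG20. In this corrected fit the Spearman coefficient between log2 fold change and GC content was −0.009 across 12010 genes and −0.19 across the members. The correction was fitted in each library without regard to group. It can therefore also remove a difference between the groups that follows GC content. The heatmap of all members shows most of the contrast in a few rows at the top and bottom of each class.

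**Figure D1:**
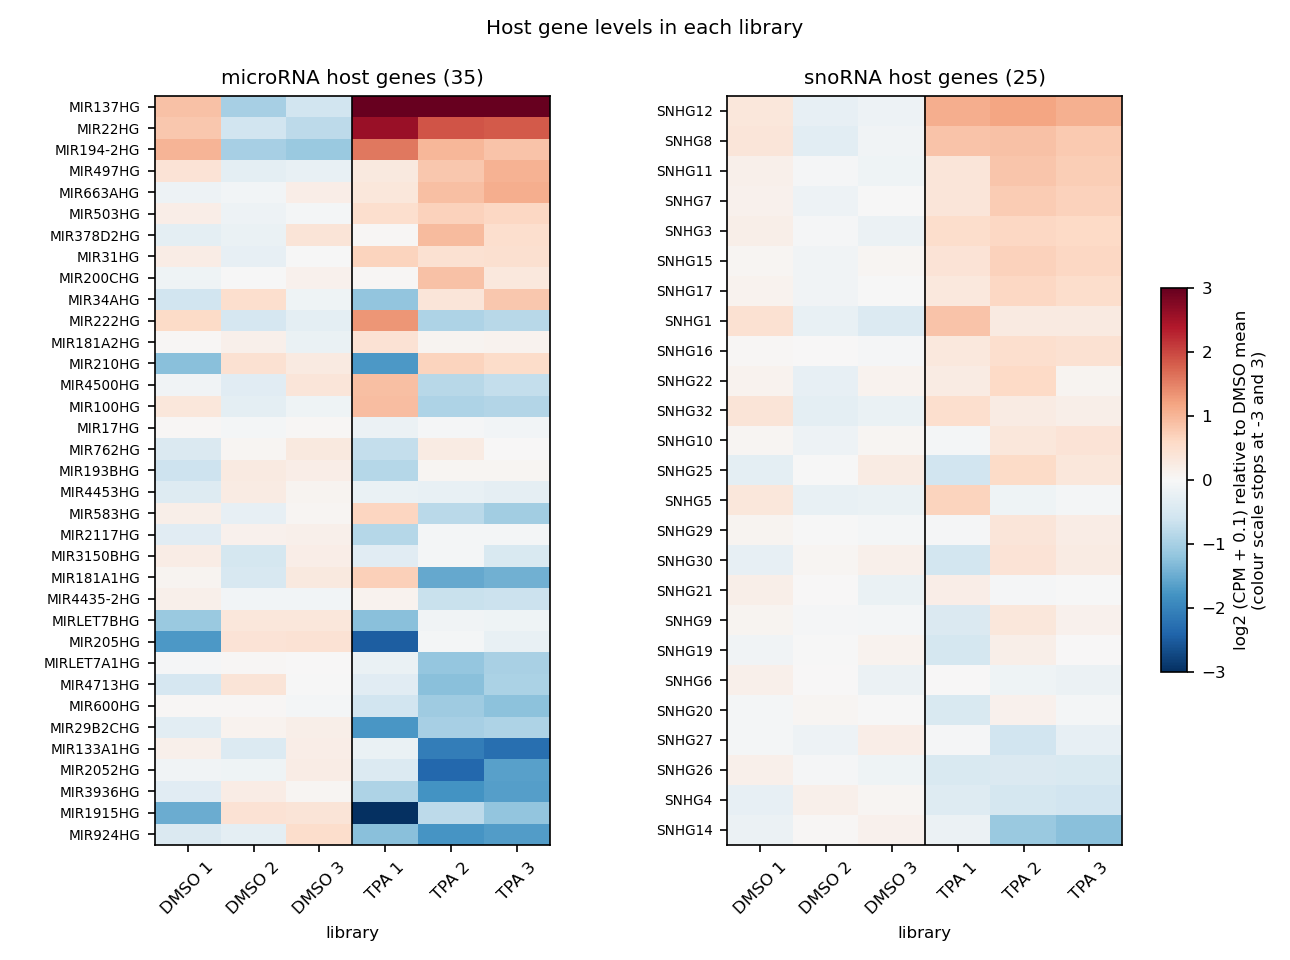
Each row is 1 of the 60 host genes and each column 1 library, coloured by the log2 ratio of its CPM (plus 0.1) to the mean of the DMSO libraries and ordered by the fitted change. MIR137HG and MIR22HG are above the DMSO mean in TPA 1, 2 and 3, and MIR924HG, MIR3936HG and MIR2052HG, among the bottom rows, are below it in all 3.

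MIR137HG, host of miR-137 and miR-2682, showed the largest difference of any member. The gene lies on chromosome 1 at 97988000 to 98049693, minus strand, and is annotated as a long intergenic RNA. miR-137 is best known from neurons and as a growth-suppressive microRNA in tumours. Its level was 1.15, 0.244 and 0.358 CPM in DMSO 1 to 3 and 23.2, 5.51 and 6.85 CPM in TPA 1 to 3. Every TPA library exceeded every DMSO library, and within both groups library 1 was the highest. The log2 fold change was 4.34 ± 0.80 (SE, 3 against 3 libraries), with an edgeR adjusted p of 0.0545 without the block and 2.66e-05 with it. The 3 same-numbered pairs gave log2 ratios of 4.22, 4.03 and 3.92. MIR137HG shares 494 exonic bases with DPYD on the same strand, and DPYD read 15.8, 23.5 and 25.5 CPM in DMSO and 35.5, 19.3 and 20.0 CPM in TPA, with a log2 fold change of 0.21 ± 0.33.

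MIR22HG (chromosome 17, 1711504 to 1716210, minus strand) is the host of miR-22 and a long RNA known to respond to many kinds of cell stress. It read 27.9, 10.6 and 9.12 CPM in DMSO and 96.9, 59.1 and 57.5 CPM in TPA. The lowest TPA library was above the highest DMSO library, and again the libraries numbered 1 were the highest of their groups. The log2 fold change was 2.16 ± 0.48, with edgeR adjusted p-values of 0.0676 without the block and 0.000815 with it.

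MIR194-2HG (chromosome 11, 64888458 to 64893449, minus strand) carries the hairpins of miR-192 and miR-194, microRNAs abundant in gut and liver. It was a low-level transcript, at 1.78, 0.366 and 0.326 CPM in DMSO and 2.65, 1.75 and 1.57 CPM in TPA. The groups overlapped, since DMSO 1 was above TPA 2 and TPA 3, while TPA was the higher library in each of the 3 pairs. The log2 fold change was 1.27 ± 0.67, with an adjusted p of 0.311 by edgeR without the block and 0.0417 with it. With the block and a GC correction together the log2 fold change was 1.24 with an adjusted p of 0.0578, so the call was lost at a similar size.

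**Figure D2:**
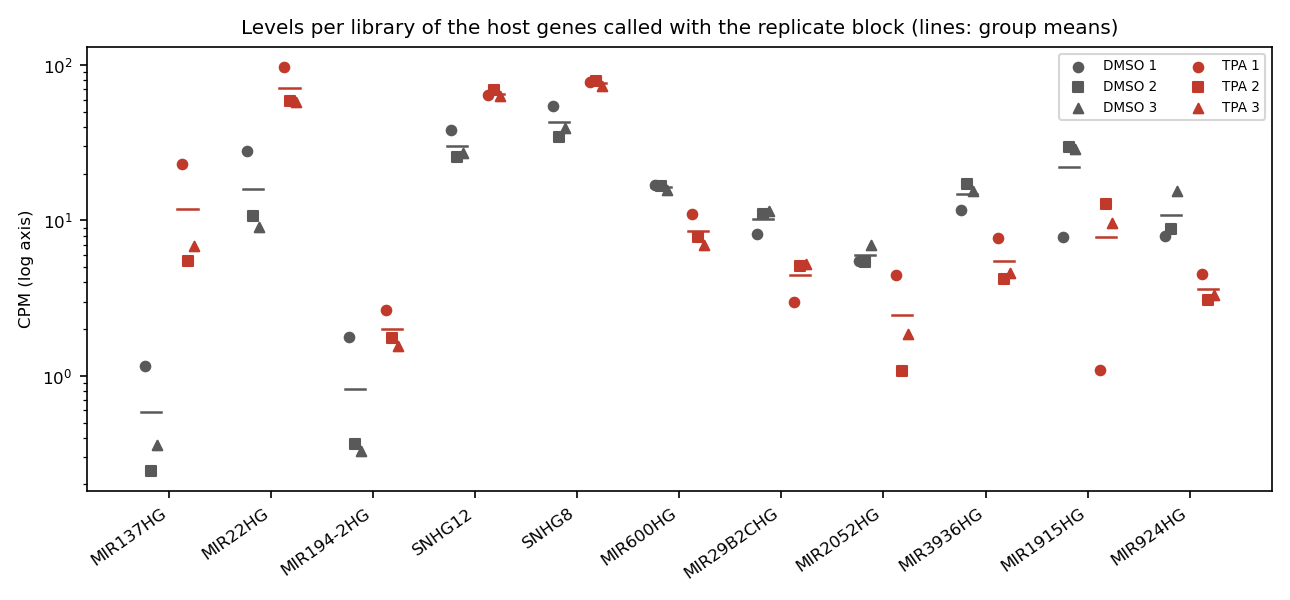
The log axis gives the CPM of the 11 members called with the replicate block, with DMSO libraries in grey, TPA libraries in red, the marker shape giving the library number and short lines the group means. MIR137HG, MIR22HG, SNHG12 and SNHG8 have all 3 TPA points above all DMSO points, while MIR194-2HG and MIR1915HG overlap.

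Of the 6 members that fell with the block, MIR29B2CHG hosts miR-29b and miR-29c, known as repressors of collagen messages. It spans chromosome 1 from 207801518 to 207822703 on the minus strand. It read 8.23, 10.9 and 11.5 CPM in DMSO and 2.97, 5.07 and 5.28 CPM in TPA, so the groups did not overlap. The log2 fold change was −1.20 ± 0.30, with edgeR adjusted p-values of 0.0837 without and 0.0141 with the block. Its 3 pairs were close to each other, at −1.44, −1.09 and −1.10.

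MIR924HG, a long intergenic RNA of chromosome 18 (39206924 to 39751995, minus strand), read 7.97, 8.85 and 15.6 CPM in DMSO and 4.50, 3.09 and 3.33 CPM in TPA. All TPA libraries were below all DMSO libraries, at a log2 fold change of −1.57 ± 0.34 and an edgeR adjusted p of 0.0671, or 0.0139 with the block. Adding the GC correction to the block gave −0.96 (adjusted p 0.0278). MIR3936HG (chromosome 5, 132311276 to 132369916, minus strand) read 11.7, 17.2 and 15.4 CPM in DMSO and 7.72, 4.20 and 4.60 CPM in TPA. It likewise showed no overlap, with a log2 fold change of −1.42 ± 0.32 and edgeR adjusted p-values of 0.0676 and 0.0169. Its exons overlap those of SLC22A4 and SLC22A5 on the other strand, which had log2 fold changes of −0.10 ± 0.22 and 0.07 ± 0.19.

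MIR600HG (chromosome 9, 123109494 to 123115477, minus strand) was even across DMSO, at 16.8, 16.7 and 15.6 CPM, and read 11.0, 7.83 and 6.91 CPM in TPA. The TPA libraries were all lower, with a log2 fold change of −0.93 ± 0.25 and edgeR adjusted p-values of 0.0923 without and 0.0321 with the block. STRBP, a gene on the same strand that shares 254 exonic bases with it, had a log2 fold change of −0.49 ± 0.31. MIR2052HG of chromosome 8 read 5.50, 5.43 and 6.94 CPM in DMSO and 4.42, 1.08 and 1.86 CPM in TPA, with the TPA libraries below the DMSO libraries. Its log2 fold change was −1.28 ± 0.50, with edgeR adjusted p-values of 0.190 without the block, 0.0356 with it and 0.0501 with the block and the GC correction.

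MIR1915HG (chromosome 10, 21492658 to 21497260, minus strand) differed by library number as well as by group. It read 7.77, 29.6 and 28.8 CPM in DMSO and 1.09, 12.8 and 9.62 CPM in TPA. Both libraries numbered 1 were the lowest of their groups and DMSO 1 lay under TPA 2 and TPA 3, so the groups overlapped. TPA was lower in each pair, by log2 ratios of −2.73, −1.20 and −1.57. The log2 fold change was −1.49 ± 0.83, with an edgeR adjusted p of 0.337 without the block and 0.00816 with it.

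The most abundant MIR hosts per length included those of miR-205 and miR-31, microRNAs known from squamous cells. Mean TPM (reads per transcript length, over the 6 libraries) was 357 for MIR205HG, 58.7 for MIR222HG, 54.3 for MIR4435-2HG, 53.2 for MIR31HG and 50.8 for MIR22HG, beside a median of 9.42 over the 35 MIR members. None of the first 4 passed edgeR's test with or without the block, while with the block and the GC correction MIR205HG was called lower and MIR222HG higher. Fewer cells making a transcript and less of it per cell cannot be told apart in such bulk samples.

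MIR205HG hosts miR-205, a microRNA abundant in basal and squamous epithelium. It read 123, 539 and 550 CPM in DMSO and 73.0, 386 and 349 CPM in TPA, with a log2 fold change of −0.59 ± 0.71 and an adjusted p of 0.656 by edgeR, or 0.0921 with the block. Adding the GC correction to the block gave −0.75, with an adjusted p of 0.0103. The libraries numbered 1 were the lowest of both groups and the groups overlapped, while each TPA library was below its DMSO partner. KRT5, a keratin of basal squamous cells, was likewise lowest in the libraries numbered 1, at 428 CPM in DMSO 1 and 66.7 CPM in TPA 1. It read 1736 and 1780 CPM in DMSO 2 and 3 and 490 and 509 CPM in TPA 2 and 3. Other squamous markers did not all share this order. EPCAM was highest in the libraries numbered 1, and DSP was highest in TPA 1 among the TPA libraries.

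MIR31HG, host of the squamous-cell microRNA miR-31, read 10.3, 7.48 and 8.89 CPM in DMSO and 14.1, 12.3 and 12.4 CPM in TPA. Its TPA libraries were all higher, with a log2 fold change of 0.54 ± 0.23 and adjusted p-values of 0.221 by edgeR and 0.127 with the block. Its log2 fold change with the block and the GC correction was 0.18 (adjusted p 0.403). MIR4435-2HG had a log2 fold change of −0.36 ± 0.27 (−0.55 with the block and the GC correction) and overlapping groups, and its near-identical copy in the genome makes its counts uncertain. MIR17HG, the precursor of the growth-linked cluster with miR-17, miR-18a, miR-19a, miR-20a, miR-19b and miR-92a, read 10.2, 9.61 and 10.3 CPM in DMSO and 8.88, 9.71 and 9.52 CPM in TPA, with a log2 fold change of −0.10 ± 0.21. MIR210HG, host of the hypoxia-linked miR-210, read 1.84, 6.29 and 5.44 CPM in DMSO and 1.31, 7.23 and 6.62 CPM in TPA, split by library number and not by treatment. Both of these changed sign under some settings.

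In 9 members, 7 of them MIR hosts, the log2 ratio of pair 1 was above 0 and those of pairs 2 and 3 below it, and in 7 members the signs were the other way round. That is 15% and 11.7% of the members, where the same patterns took 20.3% and 14.4% of all genes tested. MIR222HG, whose microRNAs miR-221 and miR-222 repress the cell-cycle inhibitor p27, read 58.6, 27.8 and 32.0 CPM in DMSO and 98.9, 20.8 and 22.0 CPM in TPA. Its highest and its lowest libraries were both TPA libraries, and the fitted log2 fold change was 0.26 ± 0.64. The calls of edgeR went both ways, with −0.33 and an adjusted p of 0.0156 without the libraries numbered 1, and 0.50 and an adjusted p of 0.0316 with the block and the GC correction.

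The 4 hosts of the let-7 seed shown above did not share one order of libraries. let-7 is known as a growth-restraining family that rises as cells mature. MIRLET7A1HG read 20.4, 21.3 and 20.9 CPM in DMSO and 18.2, 9.21 and 10.7 CPM in TPA, so that TPA was lower in every library but only slightly so in TPA 1. Its log2 fold change was −0.72 ± 0.30, with an adjusted p of 0.212 by edgeR and 0.0766 with the block, and with the GC correction as well it was −0.22. MIRLET7BHG read 14.1, 38.5 and 38.8 CPM in DMSO and 12.8, 28.5 and 27.8 CPM in TPA, lower in each pair with overlapping groups. MIR100HG (61.8, 39.4 and 44.4 CPM against 91.6, 25.7 and 26.4 CPM) and MIR4500HG (13.3, 11.4 and 18.6 CPM against 27.1, 8.03 and 8.71 CPM) each had TPA 1 as the highest library and TPA 2 and 3 as the lowest. The plot of pair ratios shows these among the members at its lower right.

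**Figure D3:**
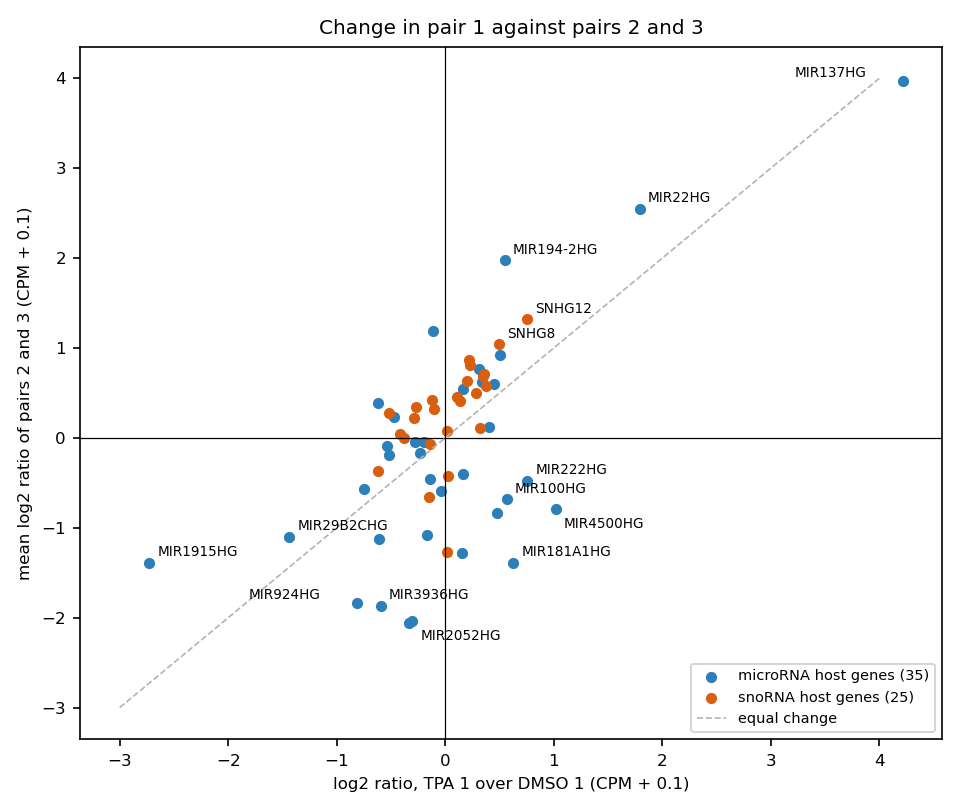
Each point is 1 member, with the log2 ratio of TPA 1 to DMSO 1 on the x axis and the mean log2 ratio of pairs 2 and 3 on the y axis (CPM plus 0.1), MIR hosts in blue and SNHG genes in orange. MIR137HG and MIR22HG lie at the upper right, and MIR222HG, MIR100HG, MIR4500HG and MIR181A1HG lie at the lower right, where pair 1 is positive and the others negative.

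The snoRNA host genes gave smaller differences, mostly of one sign. Their median log2 fold change was 0.21, with 18 of 25 fitted above 0, beside −0.19 with 14 of 35 for the MIR hosts and −0.11 for all genes tested. This direction depended on scaling, since with library size as the only scaling the SNHG median was −0.03 and that of all genes −0.36. In 8 of 25 SNHG genes every TPA library was above every DMSO library and in 2 every one was below, and for the MIR hosts these counts were 5 and 6 of 35. Over all genes tested, 14.3% lay fully above and 15.2% fully below. The plot of fitted changes gives all 60 members with their errors.

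SNHG12 (chromosome 1, 28578538 to 28582983, minus strand), which carries SNORA16A, SNORA44, SNORA61 and SNORD99, had the largest difference of the class. It read 38.2, 25.5 and 27.0 CPM in DMSO and 64.5, 68.7 and 63.2 CPM in TPA. The TPA libraries were close together and all above the DMSO libraries, with a log2 fold change of 1.11 ± 0.24. The edgeR adjusted p was 0.0651 without the block and 0.0192 with it. SNHG8 (chromosome 4, 118278762 to 118279823, plus strand), host of SNORA24, read 54.9, 34.2 and 39.5 CPM in DMSO and 77.5, 78.5 and 73.8 CPM in TPA. It also did not overlap, with a log2 fold change of 0.84 ± 0.24 and edgeR adjusted p-values of 0.105 and 0.0472.

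**Figure D4:**
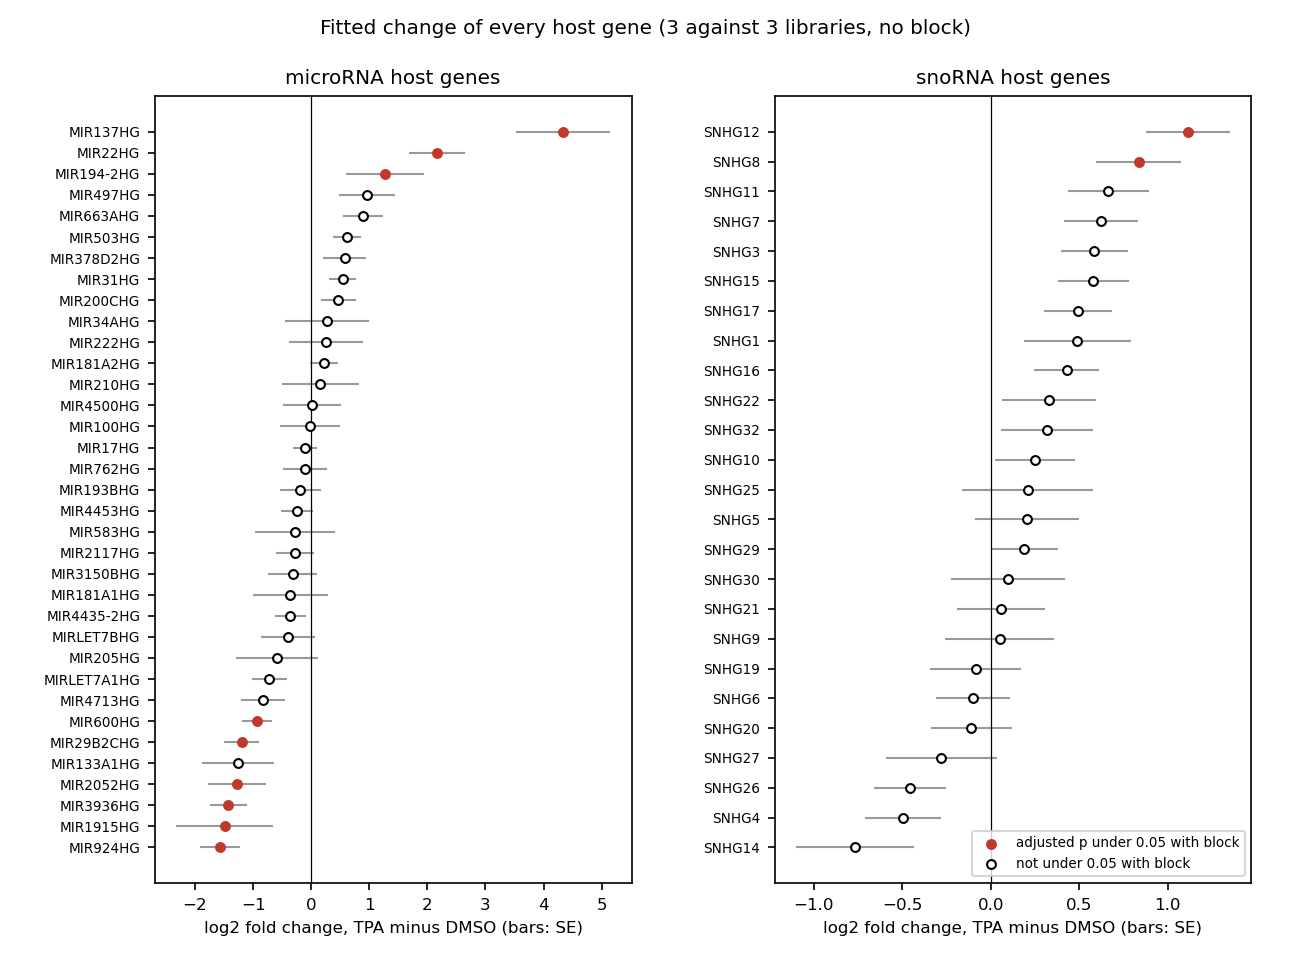
Points are the log2 fold changes of TPA minus DMSO from edgeR without a block and bars are 1 SE, for the 35 MIR hosts (left) and 25 SNHG genes (right), which have different x axes. Red points are the 11 members called with the replicate block, and SNHG values run from −0.77 for SNHG14 to 1.11 for SNHG12.

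In 6 further SNHG genes the TPA libraries lay above the DMSO libraries without passing edgeR's test with or without the block. Their log2 fold changes were 0.66 for SNHG11, 0.62 for SNHG7, 0.59 for SNHG3, 0.58 for SNHG15, 0.49 for SNHG17 and 0.43 for SNHG16. With the block and the GC correction SNHG3 (0.59, adjusted p 0.0262) and SNHG16 (0.55, adjusted p 0.0387) passed, while SNHG11 (0.28), SNHG7 (0.29), SNHG15 (0.35) and SNHG17 (0.18) were smaller and did not. SNHG11, which carries SNORA60 and SNORA71E, read 18.3, 16.1 and 15.1 CPM in DMSO and 21.4, 29.4 and 27.7 CPM in TPA. SNHG3, source of the U17 snoRNAs SNORA73A and SNORA73B that act in the cutting of ribosomal RNA, read 175, 152 and 139 CPM in DMSO and 224, 239 and 236 CPM in TPA. Its log2 fold change was 0.59 ± 0.19, with adjusted p-values of 0.133 by edgeR and 0.111 with the block. RCC1, which shares 242 exonic bases with SNHG3 on the same strand, had 0.69 ± 0.28.

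Some of these genes are neighbours. SNHG3 and SNHG12 lie 67646 bases apart on chromosome 1, and SNHG17 and SNHG11 lie 11326 bases apart on chromosome 20. SNHG17, carrier of SNORA71A to SNORA71D, read 190, 162 and 174 CPM in DMSO and 219, 269 and 250 CPM in TPA, with a log2 fold change of 0.49 ± 0.19. SNHG15, host of SNORA9, read 53.5, 47.4 and 53.4 CPM in DMSO and 68.3, 83.1 and 79.5 CPM in TPA. In SNHG15, SNHG7 and SNHG17 the TPA 1 library was the lowest of the TPA libraries.

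SNHG29 had the highest mean TPM of the class, at 391, beside a class median of 39.7, and was followed by SNHG8 at 231, SNHG17 at 182, SNHG3 at 171 and SNHG5 at 126. SNHG29, which carries SNORD49A, SNORD49B and SNORD65, read 395, 374 and 359 CPM in DMSO and 368, 484 and 437 CPM in TPA, with overlapping groups and a log2 fold change of 0.19 ± 0.19. SNHG5, host of SNORD50A and SNORD50B, read 113, 76.7 and 77.4 CPM in DMSO and 141, 81.7 and 85.0 CPM in TPA, with library 1 the highest of both groups and a log2 fold change of 0.21 ± 0.29. With library size as the only scaling both values were below 0, at −0.07 for SNHG29 and −0.03 for SNHG5. SNHG1, which carries 8 box C/D snoRNAs, read 131, 81.7 and 71.5 CPM in DMSO and 170, 115 and 114 CPM in TPA, with a log2 fold change of 0.49 ± 0.30, or 0.84 (adjusted p 0.0282 by edgeR) with the block and the GC correction.

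The SNHG genes with all TPA libraries below all DMSO libraries were SNHG4 and SNHG26. SNHG4, host of SNORA74A and SNORA74D, read 22.7, 29.7 and 28.1 CPM in DMSO and 20.4, 18.5 and 18.1 CPM in TPA. Its log2 fold change was −0.50 ± 0.22, with adjusted p-values of 0.232 by edgeR and 0.176 with the block. SNHG26, host of SNORD93, had −0.46 ± 0.20. With the block and the GC correction SNHG4 had −0.18 and SNHG26 turned to 0.12, with adjusted p-values of 0.272 and 0.763 by edgeR. SNHG14, the paternally expressed transcript of the Prader-Willi region on chromosome 15, carries 83 snoRNAs and overlaps UBE3A on the other strand. It read 19.1, 22.3 and 23.7 CPM in DMSO and 19.3, 9.95 and 9.03 CPM in TPA, level in pair 1 and lower in pairs 2 and 3, with a log2 fold change of −0.77 ± 0.33 and an adjusted p of 0.230 by edgeR. UBE3A, at 135, 111 and 106 CPM in DMSO and 134, 53.6 and 58.1 CPM in TPA, likewise had its lowest values in TPA 2 and 3, while its DMSO libraries stood in another order.

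The RefSeq records used here placed 53 hairpins in 30 of the members and 126 snoRNAs in 20. Of these, 52 and 123 have a row of their own in the count table. The hairpins MIR22, MIR378D2, MIR3150B and MIR663A share exonic bases with their hosts but were not among the 53. The hairpin counts given here are therefore incomplete. None of the 24 hairpin rows or 35 snoRNA rows that lie wholly within an exon of any annotated host transcript had a count in any library, whereas 21 of 27 hairpins and 13 of 83 snoRNAs outside host exons had one. A row listed at 0 within an exon therefore carries no statement about that small RNA. Enough reads for the test were found in 18 of these rows, 11 hairpins and 7 snoRNAs, and 12 had the sign of their host. These 12 were 8 hairpins and 4 snoRNAs. They included MIR125B1, MIRLET7A2 and MIR100, whose shared host MIR100HG had a log2 fold change of −0.02 ± 0.51. The share of equal signs among unrelated genes was not computed. The 12 therefore do not show that these rows follow their hosts.

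SNORA73B, in an intron of SNHG3, was the most abundant of these snoRNA rows, at 1540, 973 and 1313 counts in DMSO and 1757, 2661 and 2618 counts in TPA. Its TPA libraries were all higher, with a log2 fold change of 0.95 ± 0.27, and it rose in edgeR's test with the block (adjusted p 0.0494) but not without it (0.104). With the GC correction as well its log2 fold change was 0.60 (adjusted p 0.0402). SNORD99 of SNHG12 had a log2 fold change of 1.26 ± 0.47 and SNORD93 of SNHG26 −0.75 ± 0.31, each with the sign of its host. SNORA74D differed in sign from its host SNHG4, with 64, 43 and 65 counts in DMSO and 88, 115 and 91 counts in TPA and a log2 fold change of 0.86 ± 0.31, and none of these 3 passed. The MIR205 hairpin read 79, 363 and 383 counts in DMSO and 23, 246 and 196 counts in TPA, the same order of libraries as MIR205HG. The MIR181A2 hairpin, at 56, 44 and 47 counts in DMSO and 42, 8 and 4 counts in TPA, had a log2 fold change of −1.30 ± 0.78, while its host MIR181A2HG had 0.22 ± 0.24, or 0.68 with the block and the GC correction.

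RefSeq start windows (250 bases before to 50 after the annotated start, GRCh38.p14) were matched for 50 members, 21 of them SNHG genes. A transcript that opens with C and then 4 bases that are C or T has the start known from messages of the translation machinery. Such a start stood in 5 of 21 SNHG windows (23.8%), in 1 MIR window and in 4.07% of 35116 windows of all genes. The 5 are shown with SNHG8 and SNHG3, which lack it, as 15 bases on either side of the start, and capitals mark the transcribed bases.
SNHG12 (chr1:28581824-28582123, minus strand): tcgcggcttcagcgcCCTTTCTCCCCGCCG
SNHG4 (chr5:139273851-139274150, plus strand): ctcggctcccggctgCCCTTTCCCCTCCGG
SNHG32 (chr6:31834666-31834965, plus strand): ctcgccattttagttCTTTTTGCGAAGTGG
SNHG5 (chr6:85678684-85678983, minus strand): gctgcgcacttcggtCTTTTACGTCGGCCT
SNHG19 (chr16:2155309-2155608, minus strand): ctcgcccgcccctgtCTTTTCGGGGTCGAG
SNHG8 (chr4:118278512-118278811, plus strand): aaggcctcggcctttCACATTCGGGAAGCG
SNHG3 (chr1:28505693-28505992, plus strand): cctcagtgagtttctGATTCTCTAACTGCG
The coordinates are those of the whole window. The SNHG12 window lies inside the span given for that gene, so its start is an internal annotated start and not the outer end. The 5 genes with this start had log2 fold changes of 1.11 for SNHG12, 0.32 for SNHG32, 0.21 for SNHG5, −0.08 for SNHG19 and −0.50 for SNHG4, and so fell on both sides of 0.

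The windows of the 2 members with the largest rise with the block are shown whole, with capitals on the first 15 transcribed bases.
MIR137HG (chr1:98049644-98049943, minus strand): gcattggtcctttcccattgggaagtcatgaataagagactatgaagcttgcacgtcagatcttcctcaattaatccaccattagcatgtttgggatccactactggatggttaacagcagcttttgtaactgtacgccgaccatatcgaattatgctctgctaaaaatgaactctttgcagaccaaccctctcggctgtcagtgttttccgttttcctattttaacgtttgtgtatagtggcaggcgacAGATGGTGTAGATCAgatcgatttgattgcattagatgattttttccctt
MIR22HG (chr17:1716161-1716460, minus strand): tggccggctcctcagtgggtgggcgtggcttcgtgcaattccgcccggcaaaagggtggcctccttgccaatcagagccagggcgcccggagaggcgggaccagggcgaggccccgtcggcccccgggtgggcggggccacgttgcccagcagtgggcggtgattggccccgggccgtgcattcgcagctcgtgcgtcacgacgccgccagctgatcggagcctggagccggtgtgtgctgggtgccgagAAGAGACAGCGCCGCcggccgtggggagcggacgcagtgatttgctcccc
On either strand neither window held TGANTCA (the AP-1 letters), TGACGTCA (the CRE letters), CACGTG (an E-box), TATAAA, the NF-kB consensus or the CArG box. These letters stood in 7.71%, 1.85%, 7.26%, 11.5%, 11.3% and 1.29% of all windows, in that order. TGANTCA was found in 0 of 21 SNHG windows and in the windows of 3 MIR hosts, MIR181A1HG, MIR2117HG and MIR4435-2HG, whose log2 fold changes were −0.36, −0.28 and −0.36. A match is a description of the letters, not a binding site, and its absence covers these windows alone.

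The genes that make or use these small RNAs gave few calls, as did all genes in the first fit. That fit, without the block, called 1.26% of all genes. Of 21 tested genes of microRNA processing and the Argonaute proteins, and of 22 of the snoRNP particles that bind snoRNAs, 0 passed. The lowest p-values were those of TARBP2, a Dicer partner, at 0.65 ± 0.24, and RAN, which drives export from the nucleus, at 0.62 ± 0.24, on the log2 scale. In the snoRNP list they were those of PIH1D1, a particle assembly factor, at 0.81 ± 0.24, and RRP9, a protein of the U3 particle, at 0.88 ± 0.29. Of 18 tested factors of nonsense-mediated decay, which degrades many spliced snoRNA hosts, 0 passed, led by DHX34 at 0.69 ± 0.21 and SMG5 at 0.64 ± 0.23. With the block and the GC correction, 2 snoRNP genes and 2 decay factors were called higher and 0 lower. In that fit 0 genes of microRNA processing were called, beside 20% of all genes. The median log2 fold changes in the first fit were 0.02, 0.32 and 0.33 for these lists, beside −0.11 for all genes. These medians were not read under other scalings.

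Host genes outside the naming rule were also described. Of 44 protein-coding snoRNA hosts 1 rose, 0 fell and 39 were fitted above 0, with a median of 0.31. Over all genes in that fit, without the block, 0.861% rose, 0.394% fell and 9602 of 21825 were fitted above 0. The signs of this list were not read under other scalings. The host that rose was HSPA8, a heat shock cognate chaperone, at 854, 1061 and 980 CPM in DMSO and 2298, 1996 and 2120 CPM in TPA. It had a log2 fold change of 1.15 ± 0.18 and an edgeR adjusted p of 0.0402. None of the 4 tested noncoding snoRNA hosts passed, with EPB41L4A-AS1 at 0.73 ± 0.25 and DANCR at 0.51 ± 0.25. Of 37 other microRNA hosts 0 passed without the block, while with it 4 fell (PANK1, GABRE, LPP and DLEU2) and 1 rose (SLIT2), a count to be read beside the 4.58% higher and 6.52% lower of all genes in that fit. DLEU2, host of miR-15a and miR-16-1, read 9.18, 10.8 and 11.4 CPM in DMSO and 4.39, 5.14 and 5.80 CPM in TPA. Its log2 fold change was −1.04 ± 0.24, with edgeR adjusted p-values of 0.0704 and 0.0227. PANK1, host of miR-107, had −1.51 ± 0.35, with 0.0723 and 0.00621.

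Leaving out both libraries numbered 1 gave many more calls among the members and among all genes alike. With 2 against 2 libraries edgeR called 26 members higher and 18 lower of 59 tested, where it called 65.5% of all genes, 32.2% as higher and 33.3% as lower. Among the SNHG genes 16 of 25 were then higher and 2 lower, with a median of 0.51 beside −0.04 for all genes. Leaving out TPA 1 alone gave 18 higher and 13 lower, where it called 52.5% of all genes, 24.6% as higher and 27.8% as lower. All 11 members called with the block were also called without the libraries numbered 1, in the same direction. That fit reused libraries of the block fit and called 65.5% of all genes, so it is no separate check of the 11.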

How the data were processed

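Total RNA of KYSE150 cells was sequenced in 3 TPA and 3 DMSO libraries. The authors deposited 1 table of raw counts per gene symbol, not normalized. Reads were aligned and counted on GRCh38 with tools that include HISAT2 2.1.0 and HTSeq 0.12.4, per the submitters' processing notes. Strand setting, annotation release and read layout were not given in the sources used here. Whether reads of overlapping genes on opposite strands were told apart is therefore not known. Values of genes that have a near-identical copy are uncertain. There were 0 columns of no sample, and each control column was read as the DMSO sample with its number.

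The members, gene lists, motifs and tests were chosen with earlier results of these data known. Differences were tested in R 4.3.3 with edgeR 4.0.16 (quasi-likelihood F-test, filterByExpr, TMM factors, no term beside the group), and p was adjusted by Benjamini-Hochberg over 21825 genes. SE is the log2 fold change divided by the square root of F. CPM are counts over TMM-scaled library sizes, and TPM used exon lengths of GENCODE 29. A count of 0 allows 3 counts, for counting error only. Alternatives were DESeq2 1.42.0, limma-voom (limma 3.58.1), RLE factors, library size only, no filter, a stricter filter, a threshold of 0.01, the replicate block, the block with a GC correction (natural spline with 5 degrees of freedom), each library left out and both libraries numbered 1 left out. The edgeR fits with and without the block were also run on simulated counts. Those counts held no effect of the library number and no GC trend, so that run does not cover either.

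The replicate numbers were taken to pair the libraries because each library and its same-numbered partner deviated together from their groups, with correlations of 0.66, 0.43 and 0.67. The pairing is read from the data, not from a stated shared culture. Pairs 2 and 3 are not told apart by it, since the crossed correlations were 0.48 (DMSO 2, TPA 3) and 0.66 (DMSO 3, TPA 2). Named members were those called with or without the block, the 5 largest non-overlapping rises and falls with an average log2 CPM of at least 1, the 5 of each class with the highest mean TPM, and a fixed set of well-known hosts. Other members were named after their values were seen. Of each list, called genes or otherwise the 2 with the lowest adjusted p were named. Coordinates, hairpins, snoRNAs, mature strands and start windows came from RefSeq on GRCh38.p14.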

Additional observations from a re-analysis of the deposited data

How the results depend on the processing

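The numbers of members called depended on the setting. Members called higher numbered 0 in the first edgeR fit, 5 with the replicate block and 9 with the block and the GC correction. The shares of all genes called in either direction were 1.26%, 11.1% and 20%, in that order. Also without a block, members called higher numbered 8 with DESeq2, 2 with limma-voom, 1 with RLE factors, 3 without a filter and 26 without both libraries numbered 1. Members called lower numbered 0 in the first edgeR fit, 6 with the replicate block and 7 with the GC correction as well. Without a block they numbered 4 with DESeq2 and 18 without both libraries numbered 1. In either direction DESeq2 called 12% of all genes, limma-voom 1.73% and edgeR without both libraries numbered 1 65.5%. As higher, RLE factors gave 1.05% of all genes and no filter 1.06%. Over the single libraries left out, the higher calls ran from 0 to 18 and the lower calls from 0 to 13. The highest values came when TPA 1 was left out, where 52.5% of all genes were called. Without DMSO 1, 1 member was called higher, beside 0.449% of all genes.

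Of 24 named members 19 kept one sign of the log2 fold change in all 15 settings. Many of the 24 were named for their calls or large changes in these same libraries, so a kept sign is no separate check. MIR222HG turned negative with limma-voom (−0.070), with the replicate block (−0.068), without TPA 1 (−0.77) and without both libraries numbered 1 (−0.33). MIR17HG turned positive with RLE factors (0.0062), without a filter (0.00017), with DESeq2 (0.0064), with the block and GC correction (0.48), without TPA 1 (0.050) and without both libraries numbered 1 (0.10). MIR210HG turned negative with library size only (−0.12), with the block and GC correction (−0.37), without DMSO 1 (−0.21), without TPA 2 (−0.16) and without TPA 3 (−0.07). SNHG29 (−0.065) and SNHG5 (−0.033) turned negative with library size only. With single libraries left out, MIR222HG ran up to 0.67 (without DMSO 1) and MIR210HG up to 0.72 (without TPA 1). The SNHG genes fitted above 0 ranged from 11 (library size only) to 21 of 25. The cause was not tested. With the block and GC correction 9 of the 11 calls of the block held. Members under 1 CPM rest on few counts.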
